A study of Mus musculus with 6 samples.

Results

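The splicing factors and nuclear ribonucleoproteins described here are the mouse genes whose symbols begin with Hnrnp, Srsf or Snrp and that reached at least 1 CPM (gene reads per library scaled to equal library size) in at least 3 of 6 libraries. Of 32531 gene features in the count tables, 44 carried such a symbol and 43 met the minimum. These were 20 Hnrnp, 11 Srsf and 12 Snrp genes. The rule used the symbol and a minimum level only, and not the difference between groups. Just inside the minimum lay Snrpf and Snrpc, each at or above 1 CPM in 5 of 6 libraries. Snrpf had 596 reads in all libraries together and Snrpc had 743. The only matching symbol outside it was Hnrnpa1l2, with 8 reads in all 6 libraries and at most 0.0665 CPM in any of them.

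Splicing removes introns from pre-mRNA in the nucleus. It is carried out by small nuclear ribonucleoproteins (snRNPs), in which Sm proteins, encoded by Snrp genes, form a ring around the U1, U2, U4 and U5 small nuclear RNAs. SR proteins, encoded by Srsf genes, bind exons and recruit the snRNPs, whereas hnRNP proteins, encoded by Hnrnp genes, coat pre-mRNA and often repress splice sites. Many Srsf and Hnrnp genes regulate themselves through transcripts with retained introns or poison exons, which stay in the nucleus or are degraded.

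RNA came from the thalamus of adult control mice without treatment, and every library of both groups came from the Slc17a6-EGFP/Rpl10a line (JX883). Slc17a6 encodes VGLUT2, the vesicular glutamate transporter of thalamic relay neurons, and the line expresses the ribosomal protein Rpl10a with an EGFP tag, while the labels do not list the cells that carry it. Translating ribosome affinity purification (TRAP) uses anti-EGFP antibodies to pull tagged polysomes out of the homogenate. The comparison sets 3 libraries of immunopurified RNA (IP) against 3 Input libraries, numbered 1 to 3 in each group and run on lanes 3, 8 and 4, so that lane and number cannot be told apart. The labels name ribosome-bound RNA as the molecule of Input as well, and whether Input is RNA of the whole tissue was not tested. They do not say whether replicates are separate animals or pools, so p-values measure the spread between libraries, which may be technical. In bulk RNA, fewer cells of a type and less RNA per cell cannot be told apart.

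Libraries held between 44081149 and 54421395 reads assigned to genes, and 3 reads equalled 0.0551 to 0.0681 CPM. Slc17a6, for which the line is named, stood at 6490, 2193 and 2200 CPM in IP libraries 1 to 3 and at 3153, 875 and 477 CPM in Input libraries 1 to 3, so both libraries of replicate 1 stood apart for it. Its log2 fold change was 1.27, with an adjusted p of 0.206 in edgeR's quasi-likelihood test and of 0.000246 with the replicate number as a block. Of the thalamic glutamatergic markers, 4 of 8 were higher in IP (5 with the block), as were 5 of 8 pan-neuronal markers (7 with the block). Summed levels of the thalamic markers overlapped, at 6489 to 10757 CPM in IP and 2258 to 6791 CPM in Input, and their lowest log2 fold change was -0.13. The pan-neuronal sums were 17309 to 24952 CPM in IP and 13338 to 16010 CPM in Input. Oligodendrocyte markers were lower in IP for 8 of 8 genes, with a summed level of 176 to 309 CPM in IP and 3634 to 5307 CPM in Input. Lower in IP were also 7 of 8 astrocyte markers (308 to 787 CPM against 1328 to 2780 CPM), 7 of 8 microglial markers (2.21 to 3.73 CPM against 50.2 to 73.4 CPM), 5 of 8 endothelial and mural markers (2.56 to 3.11 CPM against 30.5 to 40.3 CPM) and 4 of 6 GABAergic markers (106 to 263 CPM against 835 to 1393 CPM). With the block 8 of 8 astrocyte, 8 of 8 microglial, 5 of 8 endothelial and mural and 6 of 6 GABAergic markers were lower. Of 54 marker genes, 0 were at 0 reads in every IP library. Reads assigned to no feature made up 7.65 to 7.85% of records in IP and 14.1 to 17.7% in Input, and ambiguous reads 1.53 to 1.92% and 7.37 to 13.2%. The part of cell composition and of these read classes in the differences below was not tested.

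All 43 genes were tested, and 8 of them (18.6%) differed between IP and Input at an adjusted p under 0.05, against 25.2% of all 16496 genes tested. With 43 members the difference between these shares rests on few genes, and it was not tested. Higher in IP were 5 members, namely Snrpd1, Snrpd2, Snrpb, Srsf5 and Hnrnpab, and lower were 3, namely Srsf11, Hnrnpdl and Hnrnpu. Among all genes, 9.60% were higher and 15.6% were lower. With the replicate number as a block, 7 members were higher (16.3%) and 5 lower (11.6%), beside 15.9% and 19.2% of all genes. Fold changes are log2 values of IP minus Input from edgeR after TMM scaling (a scaling between libraries by trimmed means), given with their standard error (SE), and the median over all genes tested was -0.04. CPM values are TMM-scaled.

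The family medians lay apart, which is given here as a description without a test. All 12 Snrp genes lay above 0, their median being 0.84 on the log2 scale and their range 0.27 to 1.5. They stayed above 0 under each alternative tried except without replicate 3, where Snrpn was at -0.02 and 11 of 12 were above 0. The 11 Srsf genes had a median of 0.01 and ranged from -0.998 to 0.60, and the 20 Hnrnp genes had a median of -0.07 and ranged from -0.92 to 0.57. Passing the test were 3 Snrp genes in the higher direction and 0 in the lower (4 and 0 at an unadjusted p under 0.05 in edgeR, 4 and 0 in DESeq2), 1 and 1 Srsf genes, and 1 and 2 Hnrnp genes. The 25% of Snrp genes that were higher compares with 9.60% of all genes, and the 10% of Hnrnp genes that were lower with 15.6%. Among tested protein-coding genes the share higher was 30.3% for transcripts under 1000 bases and 19.4% for 1000 to 2000 bases. Snrp transcripts, with a median of 1204.5 bases, lie mostly in these classes. In DESeq2, 2090 of all 16496 genes were higher and 3263 lower.

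**Figure D1:**
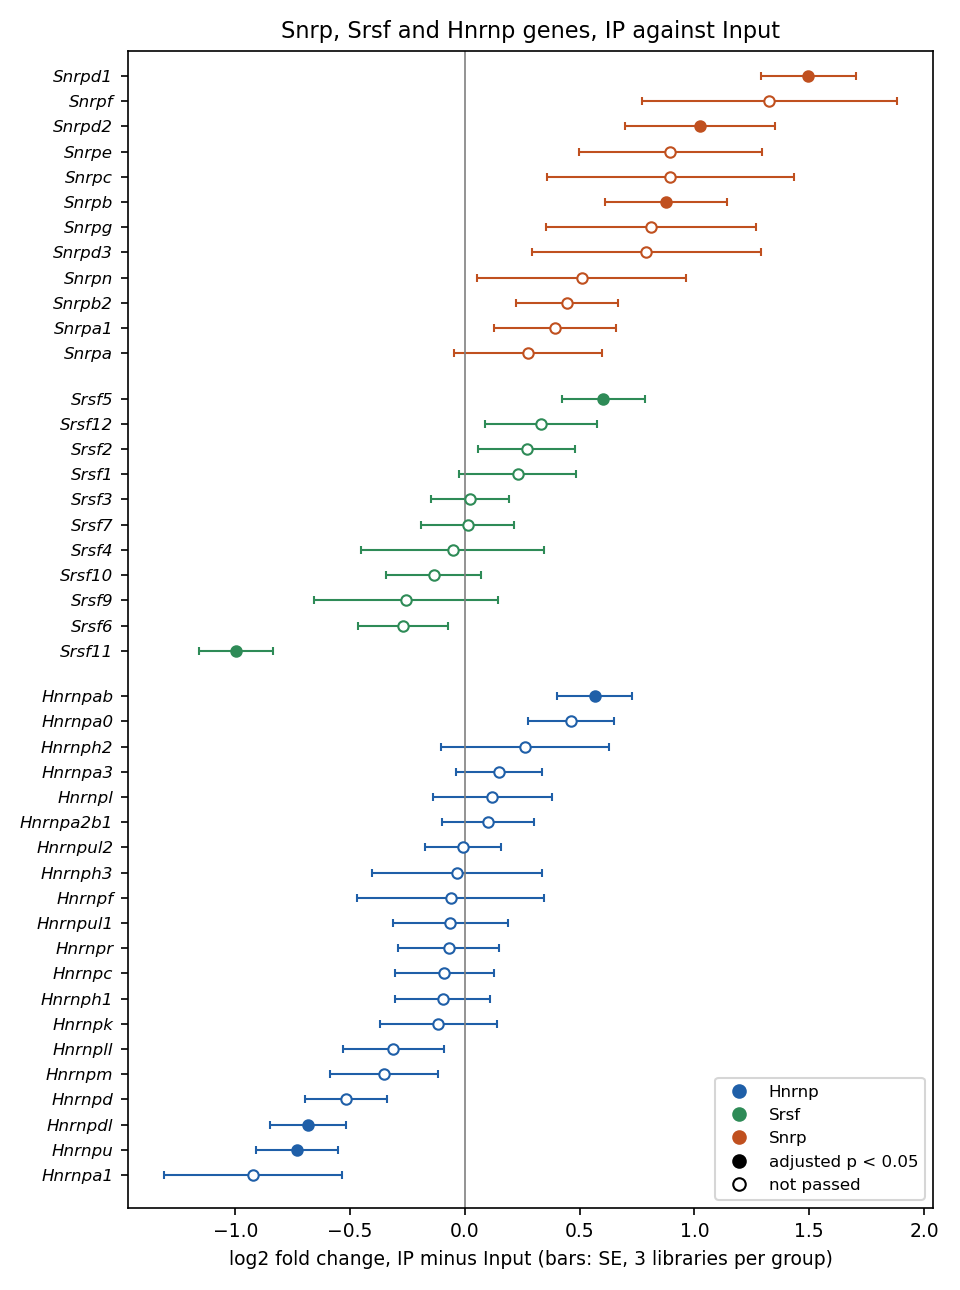
Log2 fold change of IP minus Input (x axis) for each of the 43 genes (y axis), coloured by family, with bars for the SE over 3 libraries per group; filled points passed an adjusted p of 0.05 and open points did not. All 12 Snrp genes lie to the right of 0, from 0.27 to 1.5, while Srsf and Hnrnp genes lie on both sides, from -0.998 to 0.60.

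Sm ring proteins came first in the Snrp family. Snrpd1 encodes SmD1 and lies on chromosome 18 (GRCm38, 10617775 to 10642079, plus strand). It stood at 90.1, 73.9 and 84.5 CPM in IP libraries 1 to 3 and at 24.2, 29.9 and 34.0 CPM in Input libraries 1 to 3. Every IP library was above the highest Input library, and Snrpd1 had the largest rise of the 43 genes, with a log2 fold change of 1.5 ± 0.21 (SE, n = 3 per group) and an adjusted p of 0.00186 (edgeR). It passed the test in 6 of 6 fits that left out a single library.

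Snrpd2 encodes SmD2, which pairs with SmD1 when the ring assembles, and lies on chromosome 7 (19149722 to 19153542, plus strand). Its level was 13.2, 21.9 and 22.4 CPM in IP and 6.83, 9.38 and 12.1 CPM in Input, so the groups did not overlap, although IP library 1 was close to Input library 3. The log2 fold change was 1.02 ± 0.33 with an adjusted p of 0.0487 (edgeR), just past the threshold. Leaving out IP library 2 or 3 or Input library 1 or 2 ended this call, with adjusted p up to 0.153, and so did library totals (0.0724), upper-quartile scaling (0.0738), RLE scaling (0.0564) and a filter of 1 CPM (0.0571). Snrpb encodes SmB, the ring protein expressed in most tissues, and lies on chromosome 2 (130171414 to 130179403, minus strand). It stood at 29.0, 27.0 and 23.8 CPM in IP and at 15.7, 17.7 and 10.1 CPM in Input, again without overlap. Its log2 fold change was 0.88 ± 0.26 with an adjusted p of 0.0410 (edgeR), and the call was lost in each of the 6 fits without a single library (0.0576 to 0.110), with library totals (0.0642) and with upper-quartile scaling (0.0674).

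The remaining ring proteins did not pass the edgeR test. Snrpf, encoding SmF, was at 2.82, 1.99 and 3.60 CPM in IP and at 0.892, 1.17 and 1.29 CPM in Input, without overlap. The log2 fold change was 1.33 ± 0.55, with an adjusted p of 0.114 in edgeR and of 0.0471 in DESeq2. Snrpe, encoding SmE, was at 15.3, 14.7 and 16.8 CPM in IP and 4.41, 7.37 and 13.4 CPM in Input, so only Input library 3 came near the IP level. Its log2 fold change was 0.89 ± 0.40, with an adjusted p of 0.134 (edgeR) and of 0.0335 with the replicate block. Snrpd3, encoding SmD3, showed the same library standing apart, with 9.19, 11.96 and 12.3 CPM in IP and 3.35, 3.95 and 12.04 CPM in Input. Snrpd3 had a log2 fold change of 0.79 ± 0.50 over all libraries, and without Input library 3 it was 1.62 with an adjusted p of 0.0125 (edgeR), while that of Snrpe was then 1.41 with 0.0182. Each of these genes passed in only 1 of 6 fits without a single library. In these fits adjusted p reached 0.556 for Snrpd3 and 0.294 for Snrpe (edgeR), with log2 fold changes down to 0.49 and 0.59. Snrpg, encoding SmG, was at 5.74, 11.2 and 10.4 CPM in IP and 2.67, 5.63 and 7.31 CPM in Input, with overlapping groups and a log2 fold change of 0.81.

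Snrpn encodes SmN, which takes the place of SmB in neurons and is expressed from the paternal allele. It was at 4.44, 3.44 and 8.81 CPM in IP and at 3.89, 4.16 and 3.68 CPM in Input. Only IP library 3 was above the Input range, and the log2 fold change of 0.51 had an adjusted p of 0.456 (edgeR). By summed CPM the Sm ring genes together were at 166 to 183 CPM in IP and 61.9 to 93.9 CPM in Input.

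The Snrp genes of proteins specific to U1 or U2 had a smaller median difference, at 0.42 on the log2 scale for 4 genes against 0.88 for 8 ring genes. Of the 4, 0 passed the test (0 at an unadjusted p under 0.05 in edgeR, 0 in DESeq2). This difference between the groups of genes was not tested. Snrpa, protein A of U1, was at 26.9, 57.7 and 48.9 CPM in IP and 25.3, 41.8 and 43.3 CPM in Input, and the groups overlapped. Snrpa1, protein A′ of U2, was at 21.4, 22.6 and 22.9 CPM in IP and 13.7, 23.2 and 14.1 CPM in Input. Snrpb2, protein B″ of U2, was at 33.7, 32.9 and 25.8 CPM in IP and 20.3, 21.02 and 26.5 CPM in Input, where IP library 3 fell below Input library 3. Snrpc, protein C of U1, which helps to recognise the 5′ splice site, was at 2.66, 4.06 and 2.87 CPM in IP and 1.0, 2.29 and 1.86 CPM in Input, without overlap. Their log2 fold changes were 0.27, 0.39, 0.45 and 0.89 in this order, so that of Snrpc was about the ring median.

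Across the family, 6 of 12 Snrp genes (50%) had every IP library above every Input library and 0 had the reverse, whereas 19.9% of all genes tested were wholly above and 25.0% wholly below. The summed Snrp level was 254, 283 and 283 CPM in IP and 122, 167 and 180 CPM in Input, so the sums did not overlap either.

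**Figure D2:**
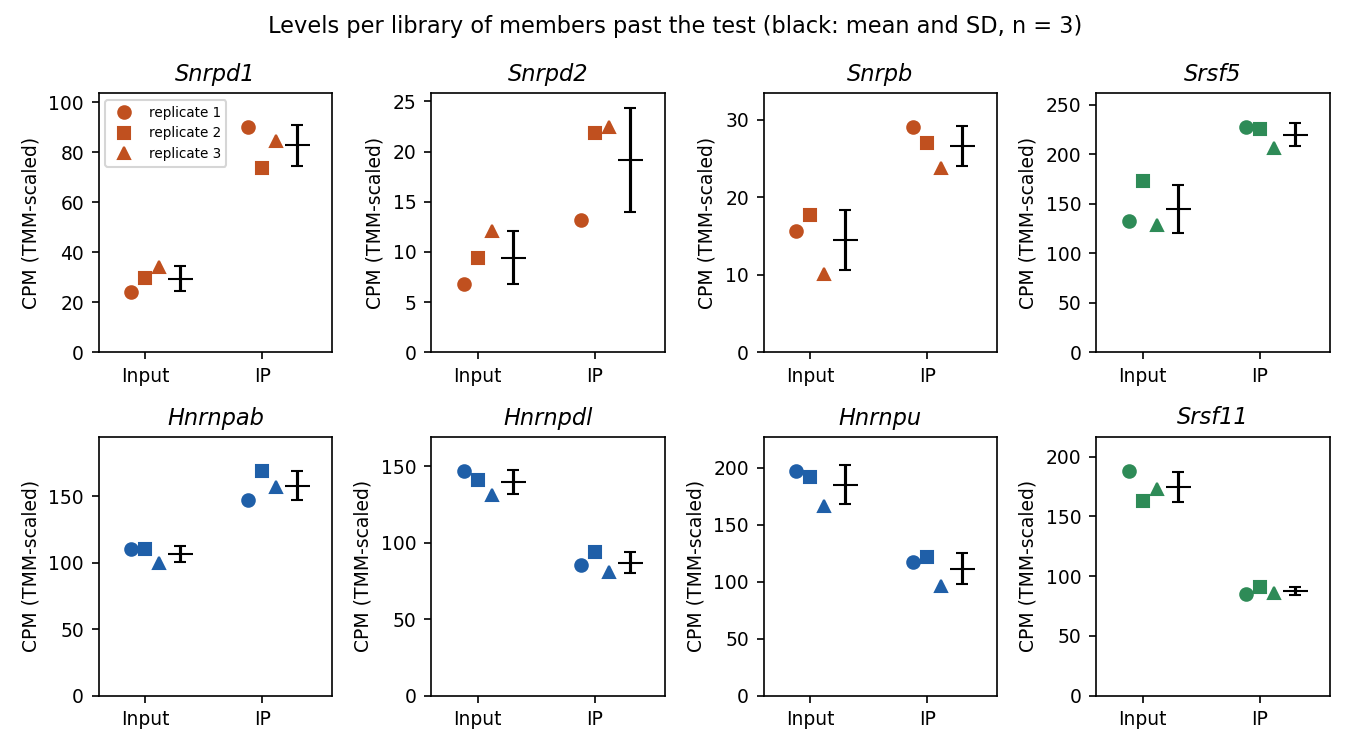
TMM-scaled CPM (y axis, from 0) of each gene past the test in Input and IP (x axis), with a marker per replicate number and black bars for mean and SD of 3 libraries. Snrpd1 separates widely, at 73.9 to 90.1 CPM in IP and 24.2 to 34.0 CPM in Input, and Srsf11 lies at 85.3 to 91.3 CPM in IP and 163 to 188 CPM in Input.

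Among SR proteins, Srsf11 fell and Srsf5 rose. Srsf11 (SRp54) lies on chromosome 3 (158010473 to 158036639, minus strand). It was at 85.3, 91.3 and 85.9 CPM in IP and at 188, 163 and 173 CPM in Input, with a wide gap between the groups. Its log2 fold change was -0.998 ± 0.16 (SE, n = 3 per group) with an adjusted p of 0.00390 (edgeR). It passed in 6 of 6 fits without a single library, and without both libraries of replicate 2 the adjusted p was 0.0762. Srsf5 (SRp40) lies on chromosome 12 (80945504 to 80950507, plus strand) and was at 227, 225 and 206 CPM in IP and 133, 173 and 128 CPM in Input. The groups did not overlap, and the log2 fold change was 0.60 ± 0.18 with an adjusted p of 0.0403 (edgeR). Leaving out any single library except Input library 2 ended the call, with adjusted p up to 0.122, as did library totals (0.0906), upper-quartile scaling (0.0885) and the 1 CPM filter (0.0537). For Srsf genes, 1 of 11 (9.09%) was wholly above and 1 of 11 wholly below Input.

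The other 9 Srsf genes did not pass the test. Srsf2 (SC35), which binds exonic enhancers, was at 137, 90.5 and 101 CPM in IP and 91.2, 102 and 78.5 CPM in Input, with a log2 fold change of 0.27. Srsf1 (ASF/SF2) was at 81.3, 56.7 and 50.9 CPM in IP and 69.2, 47.3 and 44.7 CPM in Input, with a log2 fold change of 0.23. In both groups replicate 1 held the highest Srsf1 level, and IP exceeded Input within every replicate number. Srsf12 was at 68.8, 79.8 and 84.4 CPM in IP and 51.9, 48.9 and 84.5 CPM in Input, and its log2 fold change of 0.33 became 0.64 with an adjusted p of 0.0476 (edgeR) without Input library 3. That was the only 1 of 6 fits without a single library that it passed, and adjusted p reached 0.695 (edgeR).

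Srsf3 (SRp20) and Srsf7 (9G8), which also act in mRNA export, lay at 0.02 and 0.01 on the log2 scale. Srsf3 was at 96.3, 86.4 and 86.7 CPM in IP and 89.7, 79.8 and 95.6 CPM in Input. Srsf7 was at 64.1, 88.1 and 90.3 CPM in IP and 89.4, 79.7 and 71.6 CPM in Input, and the sign of both changed with the scaling (-0.03 and -0.02 with library totals, -0.07 for each with upper-quartile scaling). Below 0 came Srsf4 at -0.05, Srsf10 at -0.14, Srsf9 at -0.26 and Srsf6 at -0.27. Srsf10 (SRp38), a repressor of splicing when dephosphorylated, was at 28.7, 26.2 and 31.4 CPM in IP and 27.2, 31.3 and 36.2 CPM in Input. Srsf9 was at 26.0, 20.5 and 24.2 CPM in IP and 16.1, 19.4 and 49.1 CPM in Input, and without Input library 3 its log2 fold change was 0.42. Srsf6 (SRp55) was at 53.1, 49.2 and 40.5 CPM in IP and 51.9, 55.7 and 64.5 CPM in Input, with overlapping groups. Srsf4 (SRp75) was at 5.41, 5.40 and 5.43 CPM in IP and 7.00, 6.47 and 3.38 CPM in Input. Among the 9, IP and Input overlapped for every gene.

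In the Hnrnp family, Hnrnpu and Hnrnpdl fell and Hnrnpab rose. Hnrnpu (SAF-A), a nuclear scaffold protein that binds RNA and chromatin, lies on chromosome 1 (178321108 to 178337797, minus strand). It was at 117, 121 and 96.4 CPM in IP and at 198, 192 and 166 CPM in Input. The highest IP library was below the lowest Input library, and the log2 fold change was -0.73 ± 0.18 (SE, n = 3 per group) with an adjusted p of 0.0179 (edgeR). Hnrnpdl, a close relative of the AU-rich element binding protein Hnrnpd, lies on chromosome 5 (100033577 to 100039664, minus strand). It was at 85.8, 94.3 and 80.9 CPM in IP and 147, 141 and 131 CPM in Input, without overlap, and its log2 fold change was -0.68 ± 0.17 with an adjusted p of 0.0178 (edgeR). Both calls ended without IP library 2 or 3 or Input library 2, with adjusted p up to 0.0819 for Hnrnpu and 0.0817 for Hnrnpdl.

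Hnrnpab (CBF-A), which also takes part in mRNA transport in neurons, lies on chromosome 11 (51600100 to 51606847, minus strand). It was at 147, 169 and 157 CPM in IP and 110, 110 and 99.5 CPM in Input, again without overlap. The gene's log2 fold change was 0.57 ± 0.16 with an adjusted p of 0.0346 (edgeR). The call passed only without IP library 1 among the 6 fits that left out a library, with adjusted p up to 0.128, and it ended with library totals (0.0797) and upper-quartile scaling (0.0761).

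With the replicate block 4 more genes passed, Hnrnpa0 in the higher direction and Hnrnpd and Hnrnpa1 in the lower, beside Snrpe. With it, 2 Hnrnp genes were higher and 4 lower, 1 and 1 Srsf, and 4 and 0 Snrp, against 15.9% higher and 19.2% lower of all genes under the same fit. Hnrnpa0 was at 292, 223 and 257 CPM in IP and 216, 184 and 160 CPM in Input, without overlap, with a log2 fold change of 0.46 and adjusted p of 0.107 without and 0.0268 with the block (edgeR). Hnrnpd (AUF1) was at 232, 204 and 183 CPM in IP and 336, 278 and 271 CPM in Input, also without overlap, with a log2 fold change of -0.52 and adjusted p of 0.0652 and 0.0118. Hnrnpd also passed with library totals (adjusted p 0.0451), upper-quartile scaling (0.0339), the 1 CPM filter (0.0448), DESeq2 (0.0285) and limma-voom (0.0498), and with RLE scaling it did not. Hnrnpa1, a repressor that binds exonic silencers, was at 8.72, 22.0 and 15.1 CPM in IP and 17.7, 33.0 and 36.1 CPM in Input. IP library 2 overlapped Input library 1, yet IP was the lower library within each number, and the log2 fold change was -0.92 ± 0.39 with adjusted p of 0.115 and 0.00879.

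Hnrnpa2b1, Hnrnpk and Hnrnph1 did not pass the test, and their groups overlapped. Hnrnpa2b1, an hnRNP of core particles that also binds transport signals in mRNA, was at 282, 278 and 226 CPM in IP and 191, 256 and 285 CPM in Input, with a log2 fold change of 0.10. Hnrnpk, which binds C-rich RNA, was at 88.6, 80.2 and 59.2 CPM in IP and 106, 82.6 and 58.9 CPM in Input, with -0.12. In both groups Hnrnpk was highest in replicate 1 and lowest in replicate 3. Hnrnph1, which binds runs of G, was at 141, 140 and 112 CPM in IP and 161, 152 and 108 CPM in Input, with -0.10.

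Hnrnph2 was at 54.9, 40.4 and 21.9 CPM in IP and 44.0, 31.7 and 21.9 CPM in Input, and Hnrnpa3 at 43.9, 46.5 and 37.6 CPM in IP and 39.7, 38.4 and 37.6 CPM in Input. The spread of Hnrnph2 within each group exceeded the difference between the groups, which was 0.26 on the log2 scale, and that of Hnrnpa3 was 0.15. The rest of the family had log2 fold changes of 0.12 for Hnrnpl, -0.01 for Hnrnpul2, -0.03 for Hnrnph3, -0.06 for Hnrnpf and Hnrnpul1, -0.07 for Hnrnpr, -0.09 for Hnrnpc, -0.31 for Hnrnpll and -0.35 for Hnrnpm. Every IP library exceeded every Input library for 2 of 20 Hnrnp genes (10%) and lay below for 4 (20%), close to or below the shares of all genes. Summed over the family (mean ± SD, n = 3), Hnrnp reached 2054 ± 156 CPM in IP against 2184 ± 74.9 CPM in Input, and Srsf 833 ± 35.1 against 817 ± 11.4 CPM, differences smaller than the spread in IP.

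**Figure D3:**
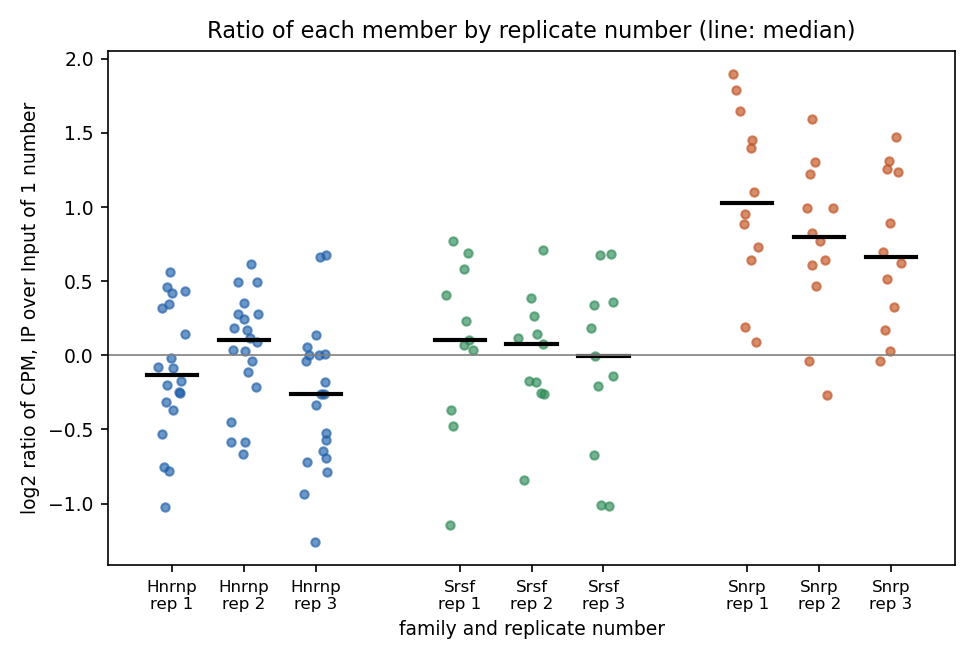
Log2 ratio of IP over Input CPM (y axis) for each gene, taken between libraries of the same number, by family and replicate number (x axis), with a line at each median. The Snrp medians are 1.03, 0.80 and 0.66, while those of Srsf and Hnrnp lie between -0.26 and 0.11.

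Within replicate numbers, the median log2 ratio of Snrp genes was 1.03, 0.80 and 0.66, and 9 of 12 genes were higher in IP in 3 of 3 numbers. Of the 31 Hnrnp and Srsf genes together, 6 were higher and 6 lower in 3 of 3 numbers. The share of all genes tested that were higher in 3 of 3 numbers was not computed. The median ratio of the 31 genes was -0.02, 0.09 and -0.18, so Snrp genes exceeded them by 1.05, 0.70 and 0.84 in numbers 1 to 3. The gap was in the same direction in all 3. Over all libraries the 31 genes had a median of -0.06, with 2 higher and 3 lower. The Snrp median was 0.55 without Input library 1 and 1.06 without Input library 3.

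The levels per transcript length placed the families in another order than the changes. Per kilobase of the longest coding transcript, the median level was 22.6 CPM for Hnrnp, 26.4 for Srsf and 14.2 for Snrp genes in IP, and 26.0, 24.3 and 8.80 CPM in Input. The highest was Hnrnpa2b1, with 152 CPM per kilobase in IP and 141 in Input, followed in IP by Srsf5 with 140 and 92.1 in Input. Next came Snrpd1 with 96.5 in IP and 34.2 in Input, close to Hnrnpa0 with 96.0 and 69.7. In Input, Snrpd1 thus ranked below Hnrnpa0, and in IP their means did not differ beyond the spread of the libraries.

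The start regions of 6 of the 8 genes that passed the test are shown, those of Snrpd1 and Snrpb being left out, so that their sequence features can be read beside the changes. RefSeq promoters (GRCm38.p6) were matched for 18 of 20 Hnrnp, 11 of 11 Srsf and 10 of 12 Snrp genes. The windows below run from 70 bases before to 30 bases after the annotated start, in the direction of transcription. Capitals mark promoter motifs searched on both strands, which may overlap each other. The TATA box was searched by the letters TATAAA. The box bound by factor NF-Y was searched by the letters CCAAT, the box bound by Sp1 by the letters GGGCGG, and the site bound by many ETS factors by the letters CCGGAAG. The windows are Hnrnpab chr11:51606852-51606951 (minus strand), Hnrnpdl chr5:100039193-100039292 (minus), Hnrnpu chr1:178337786-178337885 (minus), Snrpd2 chr7:19149768-19149867 (plus), Srsf5 chr12:80945429-80945528 (plus) and Srsf11 chr3:158036577-158036676 (minus, the more upstream of 2 annotated starts).
Snrpd2: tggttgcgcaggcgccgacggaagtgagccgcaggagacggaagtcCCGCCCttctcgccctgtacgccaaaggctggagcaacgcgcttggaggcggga
Srsf5: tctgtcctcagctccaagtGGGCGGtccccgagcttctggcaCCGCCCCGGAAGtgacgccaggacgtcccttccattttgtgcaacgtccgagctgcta
Srsf11: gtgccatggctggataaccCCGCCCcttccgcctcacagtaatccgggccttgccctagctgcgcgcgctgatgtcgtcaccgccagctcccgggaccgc
Hnrnpab: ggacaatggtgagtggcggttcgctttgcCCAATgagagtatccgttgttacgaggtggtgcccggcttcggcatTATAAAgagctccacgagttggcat
Hnrnpu: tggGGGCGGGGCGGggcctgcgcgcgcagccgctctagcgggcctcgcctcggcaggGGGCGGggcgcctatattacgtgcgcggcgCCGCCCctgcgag
Hnrnpdl: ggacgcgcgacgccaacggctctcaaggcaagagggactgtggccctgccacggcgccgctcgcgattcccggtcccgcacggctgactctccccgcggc

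Among these 6 windows, that of Hnrnpab alone held TATAAA, together with CCAAT. Snrpd2, Srsf5, Srsf11 and Hnrnpu held GGGCGG on at least a single strand, Srsf5 also held CCGGAAG overlapping it, and Hnrnpdl held none of the 4 motifs. In the full windows of 300 bases (250 before to 50 after the start), GGGCGG was present for 14 of 18 Hnrnp genes, 10 of 11 Srsf genes and 5 of 10 Snrp genes, and for 10324 of all 27025 genes. A gene can have several windows. By window, GGGCGG was in 77.8% of Hnrnp, 92.9% of Srsf and 35.7% of Snrp windows, and in 35.7% of all 32851. CCAAT was present for 13 of 18, 4 of 11 and 4 of 10 genes, and by window in 63.0%, 28.6% and 28.6%, against 37.4% of all. TATAAA was present for 2 genes in each family, and by window in 7.41%, 14.3% and 14.3%, against 13.6% of all. CCGGAAG was present for 2, 4 and 4 genes, and by window in 14.8%, 42.9% and 28.6%, against 8.86% of all. Among the 6 genes shown, rising and falling members shared GGGCGG, as Snrpd2 and Srsf5 on the one side and Srsf11 and Hnrnpu on the other.

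Transcript length moved with the difference between IP and Input. Over 14227 tested protein-coding genes (GENCODE M21 annotation), the median log2 fold change was 0.72 for 663 genes with transcripts under 1000 bases, 0.41 for 2643 genes of 1000 to 2000 bases, 0.15 for 3104 genes of 2000 to 3000, -0.03 for 4640 genes of 3000 to 5000 and -0.31 for 3177 longer genes. Snrp transcripts are short, with a median of 1204.5 bases, against 2618 for Srsf and 2908.5 for Hnrnp genes. Under 1000 bases lay 3 members, Snrpd1, Snrpf and Snrpe, with a median of 1.33. Between 1000 and 2000 bases the median was 0.84 for 6 Snrp genes, 0.27 for 3 Srsf genes and -0.41 for 2 Hnrnp genes, Hnrnpa1 and Hnrnpa2b1. Between 2000 and 3000 bases it was 0.48 for 2 Snrp genes, 0.02 for 4 Srsf genes and -0.06 for 9 Hnrnp genes. Snrpd3, with 3036 bases, was at 0.79 where all genes of its class had -0.03. In each class with Snrp genes, their median lay above that of all genes of the class and of the other families, with few genes in each. The part of length in the family difference was not tested.

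**Figure D4:**
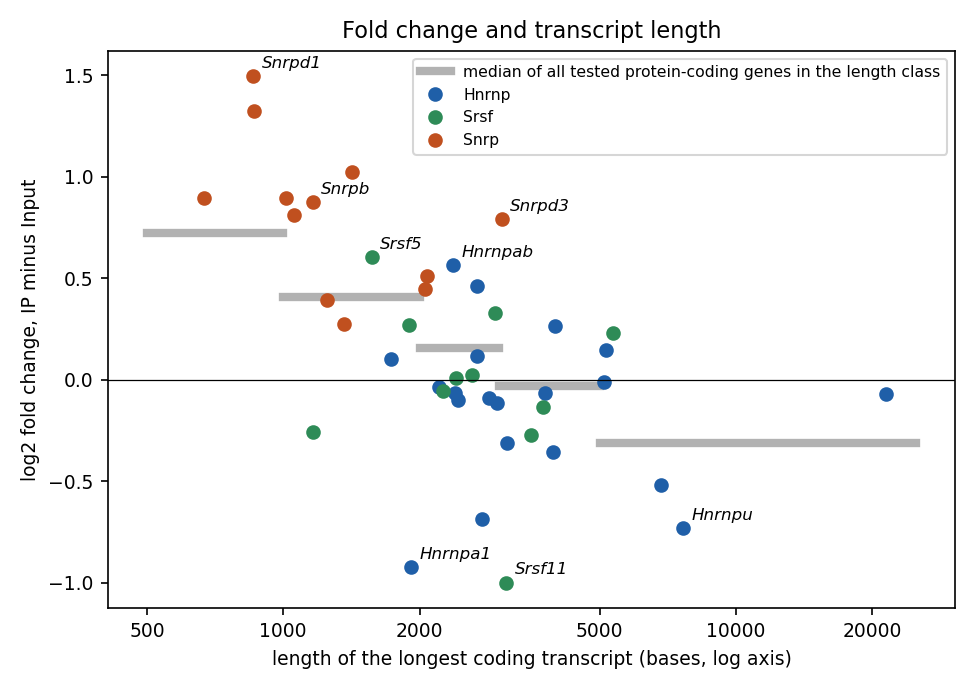
Log2 fold change of IP minus Input (y axis) against the length of the longest coding transcript in bases (x axis, log scale) for the members by family, with grey bars for the median of all tested protein-coding genes in each length class. Grey medians go from 0.72 under 1000 bases to -0.31 from 5000 bases on, and Snrp points lie mostly above them.

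Retained introns were looked at through the annotation, since counts per gene do not separate introns from exons. GENCODE M21 lists retained-intron transcripts for 14 of 20 Hnrnp genes (49 transcripts), 8 of 11 Srsf genes (26) and 9 of 12 Snrp genes (14). Srsf11, which fell, has 11 of them. Hnrnpk has 13 and Hnrnpl 7, with log2 fold changes of -0.12 and 0.12. The median log2 fold change of Hnrnp genes was -0.080 for 14 with such a transcript and 0.10 for 6 without, and that of Srsf genes 0.018 for 8 with and -0.14 for 3 without. For both families together it was -0.06 for 22 with and -0.06 for 9 without. For Snrp genes the medians were 0.81 with and 0.89 without, and for all protein-coding genes -0.01 for 8007 with and 0.07 for 6220 without. Hnrnp and Snrp genes with an annotated retained intron thus had the lower median and Srsf genes the higher, and these differences were not tested.

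Many members have processed pseudogenes or overlapping neighbours, and reads aligned to more than 1 place were not counted. Such alignments were 38.5 to 45.0% of records in IP and 23.6 to 27.2% in Input. The share of stretches of 50 bases also found in transcripts of other genes was over 10% for 8 Hnrnp, 5 Srsf and 8 Snrp genes. It was 89.5% for Snrpf, whose exons overlap Ccdc38 and 4933408J17Rik over 85.4% of their length, 67.3% for Hnrnpf, 65.4% for Srsf4 (which overlaps Gm12992), 46.4% for Hnrnpa1 (18 pseudogenes) and 26.2% for Snrpn (which overlaps Snurf), and values of these genes are uncertain. Between Hnrnpa1 and Snrpn lay Hnrnpk (37.8%), Srsf2 (35.2%), Srsf3 (31.5%), Snrpa (31.1%), Hnrnpm (28.8%) and Hnrnpa3 (28.25%). Hnrnpab and Srsf5, both past the test, lay there too, and the values of all these genes are uncertain as well. Of the genes past the test, Srsf11 and Hnrnpu had 0%, Snrpb 0.09%, Hnrnpdl 5.70%, Snrpd2 11.7%, Snrpd1 13.8%, Srsf5 27.9% and Hnrnpab 29.0%. Among members at or under 10%, 4 Snrp genes had a median of 0.62 on the log2 scale, and 18 Hnrnp and Srsf genes had -0.07, with the Snrp median again the higher.

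Other genes of the splicing machinery were taken from lists by function, without the members. Of 207 tested, 27 were higher and 27 lower in IP, with a median of 0.02, where 9.60% of all genes were higher and 15.6% lower. With the replicate block 41 were higher and 37 lower, beside 15.9% and 19.2% of all genes. Leaving out IP and Input libraries 2 together gave 2 higher and 9 lower, beside 83 and 651 of all 16632 genes. The shares of 9.60% and 15.6% apply to each list below as well, in the main fit. In other fits the counts over all genes differ. They were 2090 higher and 3263 lower in DESeq2. Leaving out IP library 1, 2 and 3 in turn gave 1276, 731 and 808 higher and 2133, 1634 and 1886 lower. Leaving out Input library 1, 2 and 3 in turn gave 1395, 810 and 1640 higher and 2190, 1752 and 2598 lower. These fits without a library tested 16872 to 17365 genes. Of 12 LSm proteins, 3 rose (25%) and 0 fell, with a median of 0.71. Some LSm proteins, but not all 12, form a ring like that of Sm proteins on U6 or in mRNA decay. The counts were 6 and 0 with the block, 7 and 0 without Input library 3, and 4 and 0 in DESeq2. At an unadjusted p under 0.05 in edgeR, 0 fell. Lsm4 rose from 9.61, 16.3 and 13.7 CPM in Input to 30.4, 35.6 and 39.3 CPM in IP, a log2 fold change of 1.41, and Lsm12 rose by 1.06. Lsm2 rose by 1.31, and this call ended without IP library 2 or 3 or Input library 2 (adjusted p up to 0.0697, edgeR).

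Of 13 genes listed for the SMN complex and Sm protein methylation, 4 rose and 0 fell (5 and 0 with the block, 5 and 0 in DESeq2). Some of these genes, but not all 13, act in the assembly of Sm rings. The median of the list was 0.55, and 0 fell at an unadjusted p under 0.05 in edgeR. Gemin7 rose from 12.5, 17.6 and 7.68 CPM in Input to 29.9, 34.3 and 34.7 CPM in IP, a log2 fold change of 1.39, with Coprs at 1.31 and Clns1a at 0.92. Of 34 other snRNP proteins 9 rose (26.5%) and 2 fell (5.88%), or 10 and 3 with the block, with a median of 0.21. The 9 became 4 without IP library 2, 3 without IP library 3 and 4 without Input library 2. Sf3b5 (1.49), Snrnp25 (1.43) and Phf5a (1.42), small subunits of the U2 and U12-type machinery, rose most, and Rnpc3, of the minor spliceosome, fell by 2.31 on the log2 scale. Median transcript lengths were 934 bases for the LSm list, 1928 for the SMN list and 2331.5 for other snRNP proteins, so these lists lie in length classes with positive medians. The share of protein-coding genes higher in IP was 30.3% under 1000 bases, 19.4% at 1000 to 2000 and 11.9% at 2000 to 3000.

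SR-related proteins went the other way. Of 30 tested, 1 rose and 10 fell (2 and 14 with the block, 6 falls without IP library 2, and 2 rises without Input library 1), with a median of -0.39 and a median transcript length of 4330 bases. Pnisr fell from 184, 212 and 280 CPM in Input to 68.9, 81.1 and 70.2 CPM in IP, a log2 fold change of -1.62. Pnn fell by 1.61 and Nktr by 1.53 on the log2 scale, while Scaf1 rose by 0.93. Of 9 kinases that phosphorylate SR proteins 2 fell (22.2%, beside 15.6% of all genes) and 0 rose (3 and 0 with the block, 2 and 0 in DESeq2). The kinases as a list did not fall, with a median of 0.02 and a highest value of 0.31, and 0 rose at an unadjusted p under 0.05 in edgeR. Clk1 fell from 42.3, 30.9 and 40.8 CPM in Input to 10.5, 7.82 and 9.97 CPM in IP, a log2 fold change of -2.01, and Clk4 by 1.46.

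Among 34 neuronal and tissue-specific regulators 2 rose (5.88%) and 6 fell (17.6%), beside 9.60% and 15.6% of all genes. With the block 6 rose and 8 fell, the median was -0.17, and 3 fell without IP library 2. Qk, a regulator abundant in glia, fell from 707, 648 and 831 CPM in Input to 27.2, 37.0 and 36.3 CPM in IP, a log2 fold change of -4.44, beside the fall of the oligodendrocyte and astrocyte markers given above. Tia1 fell by 3.34 and Celf6 rose by 1.31 on the log2 scale. Mbnl3 had 2 reads in the IP libraries together and 15, 15 and 151 in the Input libraries, an IP level of 0.946% of Input (95% exact interval 0.114 to 3.47%, counting error only), and its call ended without IP library 1 or 2 or Input library 3 (adjusted p up to 0.0743, edgeR). Among 12 hnRNP proteins with other symbols 1 rose (8.33%) and 2 fell (16.7%), near the shares of all genes. With the block 3 rose and 2 fell, 0 were higher without IP library 2, and the median was 0.31. Ptbp1, the polypyrimidine tract binding protein that neurons largely shut off, fell from 18.7, 15.6 and 23.5 CPM in Input to 7.00, 8.11 and 6.18 CPM in IP, a log2 fold change of -1.44. Pcbp3 rose by 0.97, with an adjusted p of 0.0508 (edgeR) without IP library 2.

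Step factors and helicases were 3 higher (8.33%) and 2 lower (5.56%) of 36, below the 9.60% and 15.6% of all genes. With the block 4 were higher and 3 lower, the median was -0.06, and 1 was lower when any IP library or Input library 2 was left out. They were led by Ppil1 (1.57), Bcas2 (1.29) and Bud31 (1.18) upwards and by Prpf39 (-1.19) downwards. Exon junction and export factors were 4 higher (14.8%) and 3 lower (11.1%) of 27, or 5 and 4 with the block, with a median of 0.15. Without IP library 2, IP library 3 and Input library 2, the higher genes numbered 2, 1 and 2. Magoh (0.89), Thoc3 (0.86) and Rbm8a (0.82) rose and Smg1, the kinase of nonsense-mediated decay, fell by 1.48 on the log2 scale. The Magoh call ended in each fit without a single library (adjusted p 0.0502 to 0.149, edgeR), that of Thoc3 without IP library 3 or Input library 2 (up to 0.0550), and that of Rbm8a without IP library 2 or 3 (up to 0.0828).

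Noncoding RNAs known to stay in the nucleus were listed as well. Of 10 tested, 8 were lower and 1 higher in IP (9 and 1 with the block), and their summed level was 1453 to 1752 CPM in IP and 22076 to 52583 CPM in Input. Malat1 was at 512, 528 and 747 CPM in IP and 14237, 25895 and 39687 CPM in Input, with log2 fold changes of -5.48 for Malat1, -5.06 for Meg3 and -4.89 for Miat, while Peg13 rose by 0.89. These RNAs were thus lower in the same libraries as Srsf11, Hnrnpu and Hnrnpdl, and the part of nuclear RNA in those falls was not tested.

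**Figure D5:**
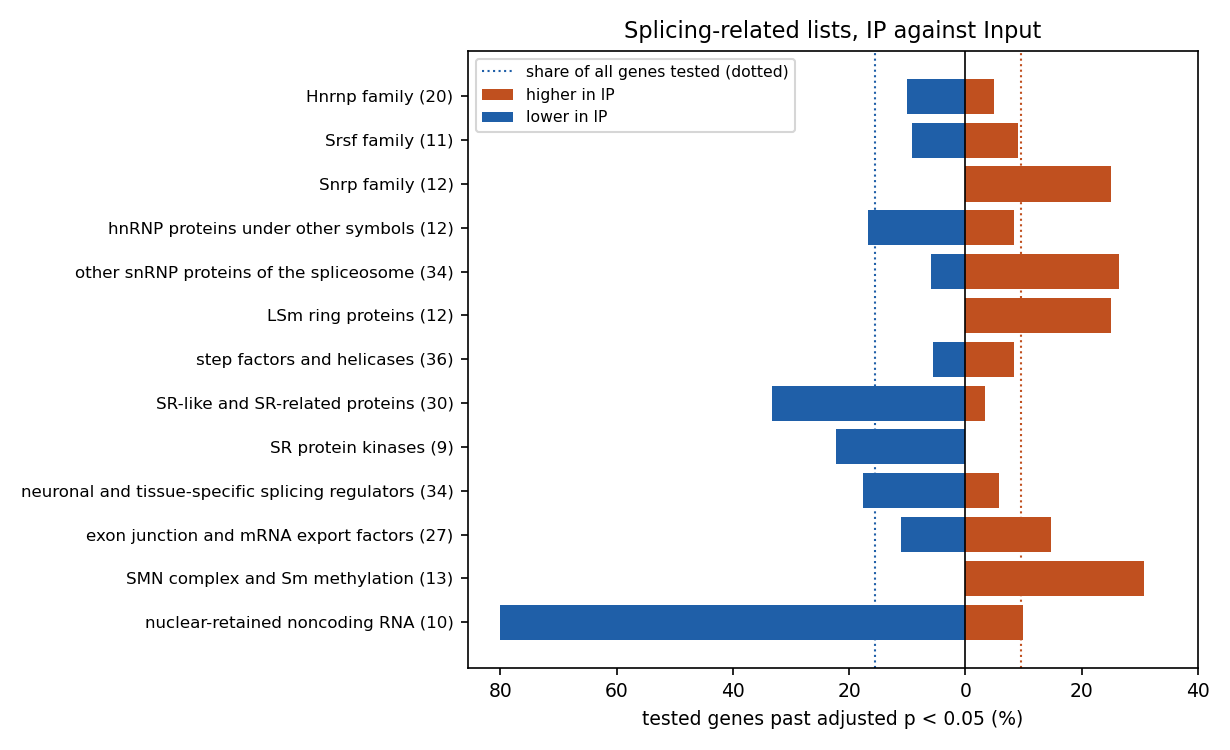
Share of tested genes past an adjusted p of 0.05 (x axis, percent, higher in IP to the right and lower to the left) in each family and list (y axis, number tested in brackets), with dotted lines at the shares of all genes, 9.60% and 15.6%. The Snrp, LSm and SMN lists have bars to the right only, at 25% to 30.8%, and SR-related proteins have 33.3% to the left. The dotted lines take no account of transcript length.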

How the data were processed

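The authors deposited gene counts, as whole numbers of reads, for each of the 6 libraries. Per the submitters' processing notes, mm10 was the build, STAR 2.0.0e the aligner and HTSeq the counter. Annotation, counting mode and strand setting were not given in the sources used here, so overlapping and antisense genes may share or lose reads. The counter's summary lines stayed out of library sizes and tests, and the report gives their shares. All pairs of libraries within a group differed by more than sampling noise.

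Genes were kept by filterByExpr on group, and 16496 were tested. The test was the two-sided quasi-likelihood test of edgeR 4.0.16 (R 4.3.3) on group, with TMM scaling, Benjamini-Hochberg adjustment and a threshold of 0.05. The code was tested on simulated counts. Alternatives were other scalings, DESeq2 1.42.0, limma-voom (limma 3.58.1), other filters, leaving out noncoding and clone-accession features, leaving out each library or number, and the replicate block. To check pairing, deviations from the group mean were correlated across genes between IP and Input libraries of the same number, which gave 0.271, 0.113 and 0.141. All exceeded 0.1. Libraries of different numbers were not compared in this way, and number and lane coincide, so these values cannot tell pairing from a shared lane. The numbers were taken from the titles, and no label states that libraries are paired. The main test, the figures and the fits without a library therefore used group only, with the replicate block as an alternative. Values with the block stand beside the calls and counts it changes.

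GENCODE M21 (GRCm38, the assembly of mm10) matched all 43 members, and 14553 tested genes by current and 491 by older symbol, with 1452 unmatched. Promoters came from RefSeq (GRCm38.p6). The rule named every member, and gave library values for the 4 highest and 4 lowest fold changes and the 2 most abundant genes of each family plus chosen genes (Snrpn, Snrpb, Hnrnpa1, Hnrnpa2b1, Hnrnpk, Hnrnpu, Hnrnph1, Srsf1, Srsf2, Srsf3, Srsf5, Srsf7 and Srsf11). From other lists it took up to 3 called genes in the main direction and 1 in the other. A gene that this rule names is not reported here. Members and lists were chosen with earlier results of these data known.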

Additional observations from a re-analysis of the deposited data

How the results depend on the processing

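There were 3 libraries per group, with gene totals of at least 44081149 reads. Snrpf and Snrpc had the fewest reads of the members, and whether depth limited their tests was not examined. Calls near the threshold depended on the scaling and on single libraries. With library totals, 0 Hnrnp, 0 Srsf and 1 Snrp genes were higher in IP, Srsf3 was at -0.026 and Srsf7 at -0.024. Upper-quartile scaling gave 0 Hnrnp, 0 Srsf and 1 Snrp genes higher, a Srsf median of -0.072, -0.066 for Srsf3 and -0.072 for Srsf7. The 1 CPM filter gave 0 Srsf genes higher, Srsf3 at -0.027 and Srsf7 at -0.037. With limma-voom Hnrnph3 was at 0.078 and Srsf4 at 0.0056, without a filter Hnrnpul2 was at 0.00054, and without noncoding and clone-accession features it was at 0.012. The cause was not tested. With RLE scaling and DESeq2, no direction of a member changed.

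With the replicate block, 2 Hnrnp genes were higher and 4 lower, 41 other splicing genes were higher, Hnrnph3 was at 0.066 and Srsf4 at 0.011, and over all genes 2624 were higher against 1583 without it. The block ended no call of a member.

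Leaving out a library or a number gave fits with fewer samples. In these, 0 to 1 Hnrnp genes were higher and 0 to 2 lower, 0 to 1 Srsf genes higher and 0 to 1 lower, and 1 to 4 Snrp genes higher. Of other splicing genes 2 to 33 were higher and 9 to 32 lower, the lowest counts coming without both libraries of replicate 2, where 83 of all genes were higher and 651 lower. Medians ranged from -0.047 to 0.12 for Srsf and from 0.55 to 1.06 for Snrp. Members without a call changed sign in some of these fits, with ranges of Hnrnpa2b1 -0.099 to 0.33, Hnrnpc -0.20 to 0.077, Hnrnpf -0.30 to 0.098, Hnrnph1 -0.24 to 0.021, Hnrnph2 -0.050 to 0.56, Hnrnph3 -0.28 to 0.45, Hnrnpk -0.30 to 0.11, Hnrnpl -0.096 to 0.49, Hnrnpr -0.26 to 0.089, Hnrnpul1 -0.22 to 0.16, Hnrnpul2 -0.080 to 0.081, Snrpn -0.020 to 0.80, Srsf3 -0.045 to 0.12, Srsf4 -0.31 to 0.14, Srsf7 -0.14 to 0.24 and Srsf9 -0.61 to 0.42. No member past the test changed sign under any alternative tried.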
